A study of Mus musculus with 8 samples.

Results

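Ribosome biogenesis genes encode the nucleolar machinery that makes ribosomes. They were taken here as a list of 47 genes of the 18193 genes that the arrays measured. The list was chosen by name and function, with earlier results of these data known. Each gene was read through 1 probe set. The cells were RAW 264.7, an established mouse macrophage line, and RNA of 4 groups was hybridised to 8 Affymetrix mouse arrays, 2 per group. The groups were LPS+M (menthol for 1 h, then lipopolysaccharide at 100 ng/ml for 6 h), LPS (control for 1 h, then the same lipopolysaccharide treatment), M (menthol) and control. All cells grew in serum-containing medium. The dose of menthol is stated by the study but not in the labels, and is not given here. The labels give no harvest time for the M and control groups, so comparisons of LPS+M or LPS with M or control may include a difference in time. Both arrays of a group are labelled as biological replicates, but nothing says that they came from separate cultures, so the spread behind each p-value may be only technical. The cells are 1 line, and all 4 groups share it.

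A ribosome is built in the nucleolus. RNA polymerase I transcribes a long precursor RNA, small nucleolar ribonucleoproteins (snoRNPs) guide its cleavage and chemical modification, and separate sets of assembly factors fold and trim the precursors of the small and the large subunit. Myc, a transcription factor of cell growth, is known to drive many of these genes, and macrophages remodel their growth and protein synthesis when bacterial lipopolysaccharide (LPS) engages Toll-like receptor signaling. The members were described in 5 classes. These were 9 snoRNP genes, 15 small subunit genes, 14 large subunit genes and 4 multifunctional nucleolar genes. The remaining class of 5 joined genes of RNA polymerase I transcription with Myc. The members lie on 19 chromosomes.

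Promoter sequences, from 250 bases before to 50 bases after the annotated start, were at hand for 39 of the 47 members (RefSeq, build GRCm38.p6). Myc binds the E-box CACGTG, which reads the same on both strands. This motif occurred in a promoter window of 9 of the 39 members (23.1%). It occurred for 926 of the 7362 genes tested here that had a window (12.6%). Of all 27025 genes with a window, 2187 had it (8.09%). A gene with several windows was counted if any of them held the motif. A match describes letters in a window, not a bound site. The 9 members were Tsr1, Wdr43, Nop2, Rrn3, Ltv1, Mybbp1a, Pes1, Utp18 and Utp20. Tsr1 and Nop2 were called in the menthol and the LPS comparisons, and Wdr43 in the LPS comparisons. Rrn3, which has 2 copies of the motif, was called in none. These calls are of the probe sets used, and a second Wdr43 probe set was called lower with menthol. The 4 promoters below are shown because their genes span what the members did. They are written 5′ to 3′ in lower case, with CACGTG in capitals.
Tsr1 (chr11:74897830-74898129, + strand): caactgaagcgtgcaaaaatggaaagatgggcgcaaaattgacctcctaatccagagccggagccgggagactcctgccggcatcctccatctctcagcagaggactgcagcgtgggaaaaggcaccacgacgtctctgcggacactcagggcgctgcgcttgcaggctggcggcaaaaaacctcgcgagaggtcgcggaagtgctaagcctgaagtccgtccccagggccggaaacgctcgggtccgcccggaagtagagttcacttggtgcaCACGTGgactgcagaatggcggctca
Wdr43 (chr17:71615965-71616264, + strand): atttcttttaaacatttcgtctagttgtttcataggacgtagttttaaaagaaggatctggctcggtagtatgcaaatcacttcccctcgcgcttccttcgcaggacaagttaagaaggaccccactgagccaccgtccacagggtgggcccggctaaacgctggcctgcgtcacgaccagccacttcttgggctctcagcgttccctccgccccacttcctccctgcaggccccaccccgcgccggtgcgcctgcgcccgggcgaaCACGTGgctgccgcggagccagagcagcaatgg
Nop2 (chr6:125131633-125131932, + strand): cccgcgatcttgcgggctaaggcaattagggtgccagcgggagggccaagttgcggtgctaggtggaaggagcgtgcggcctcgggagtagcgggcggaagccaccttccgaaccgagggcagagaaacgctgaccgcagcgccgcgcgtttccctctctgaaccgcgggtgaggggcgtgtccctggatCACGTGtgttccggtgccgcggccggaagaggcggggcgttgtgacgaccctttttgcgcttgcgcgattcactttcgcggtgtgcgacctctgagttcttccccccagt
Rrn3 (chr16:13780449-13780748, + strand): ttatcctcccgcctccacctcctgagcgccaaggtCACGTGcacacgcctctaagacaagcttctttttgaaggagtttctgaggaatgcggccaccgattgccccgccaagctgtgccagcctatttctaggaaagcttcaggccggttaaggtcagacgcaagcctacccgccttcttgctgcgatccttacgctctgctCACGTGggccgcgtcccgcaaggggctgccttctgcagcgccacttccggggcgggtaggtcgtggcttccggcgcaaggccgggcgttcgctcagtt
Counted from the annotated start, the first base of the motif lay at 25 in Tsr1, at 18 in Wdr43, at -60 in Nop2, and at -215 and -48 in Rrn3.

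The members as a group were highest in LPS and lowest in M. On each array, the median over the 47 members of the difference from the control mean was 0.06 and 0.01 on the 2 LPS+M arrays, 0.24 and 0.24 on the LPS arrays, -0.15 and -0.12 on the M arrays, and 0.01 and -0.01 on the control arrays (log2 signal). The LPS arrays lay above and the M arrays below every other array, whereas the LPS+M arrays lay close to control. The same median over all 8908 genes tested stayed between -0.03 and 0.03 on every array. By group means, 42 of the 47 members (89.4%) were highest in LPS and 38 (80.9%) were lowest in M, against 22.1% and 18.2% of all genes tested. Of the 5 exceptions, Nop14, Gnl2 and Noc2l were highest in LPS+M, Ubtf in M and Polr1a in control.

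**Figure D1:**
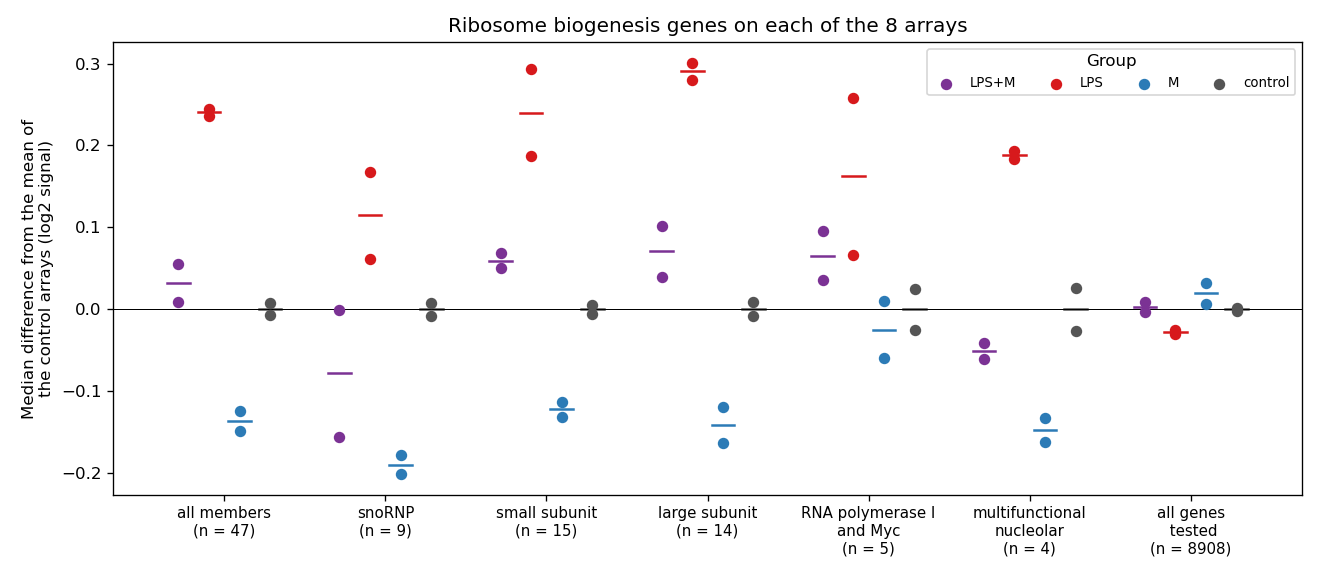
Median log2 difference of the members from the mean of the control arrays (y axis), by class (x axis) and for all 8908 genes tested. Each point is 1 array and each bar the mean of the 2 arrays of a group, and for all 47 members the LPS arrays sit at 0.24 and the M arrays at -0.15 and -0.12.

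These shifts were small in most genes and went the same way in most of them. Compared to control, M gave a negative log2 fold change in 42 of 47 members with a median of -0.14, while the median over all genes tested was 0.02. Of the 47 members, 11 fell and none rose at an adjusted p under 0.05 (limma, Benjamini-Hochberg over all genes tested). Over all genes tested, 8.63% were called lower and 13.1% higher in this comparison. None of the 11 changed by 1.5-fold or more, as 1.54% of all genes tested did downward. The count of 11 rests on few arrays: without control replicate 1 it was 2, without control replicate 2 it was 3, and without M replicate 1 or M replicate 2 it was 4. Of the 11, the calls of Nop56 and Rrp1b held whichever of the 8 arrays was left out.

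LPS versus control gave the opposite picture. The log2 fold change was positive in 45 of 47 members, with a median of 0.22, against a median of -0.03 over all genes tested. In this comparison 19 members rose and 1, Ubtf, fell, against 9.13% called higher and 12.6% called lower over all genes tested. Only Myc rose by 1.5-fold or more, against 3.17% of all genes tested. The count of 19 became 7 without control replicate 1, 11 without control replicate 2 and 11 without LPS replicate 2, and Ubtf was not called in any of these 3 fits. Of the 19, the 6 calls of Wdr75, Bysl, Tsr1, Nop2, Gnl3 and Myc held whichever array was left out.

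When menthol preceded LPS, the members lay below LPS alone. LPS+M versus LPS gave a negative log2 fold change in 43 of 47 members, with a median of -0.19, against 0.03 over all genes tested. Here 18 members fell and 1, again Ubtf, rose, while 11.4% of all genes tested were called lower and 17.3% higher. Of the 18, Myc and Rrp1b fell by 1.5-fold or more, against 2.49% of all genes tested. The count of 18 was lower in every fit that left out 1 array, and the median ran from -0.21 to -0.16. The 8 falls of Nop56, Utp20, Bysl, Tsr1, Rrp1b, Gnl3, Myc and Ddx21, and the rise of Ubtf, held whichever array was left out. Since LPS versus control and LPS+M versus LPS share the LPS arrays, and M and LPS are both set against the same control arrays, the directions in these comparisons are not independent of each other.

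**Figure D2:**
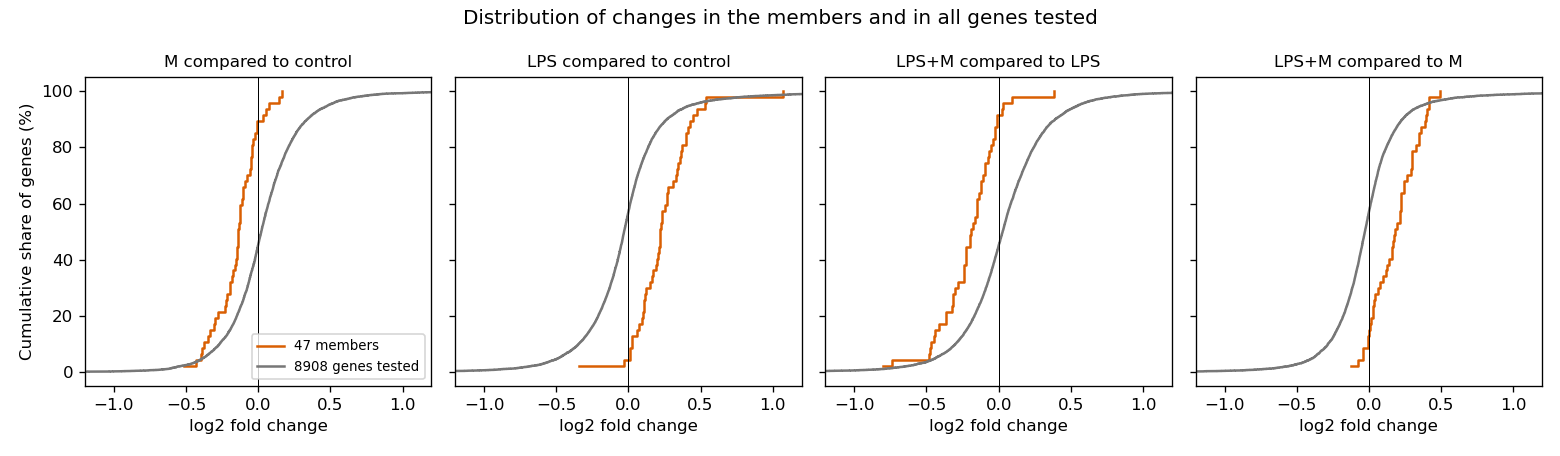
Cumulative share of genes in percent (y axis) against the log2 fold change (x axis) in 4 comparisons, for the 47 members and for all 8908 genes tested. The curve of the members lies left of that of all genes in M versus control (medians -0.14 and 0.02) and in LPS+M versus LPS (-0.19 and 0.03), and right of it in the other panels.

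Genes for the proteins that carry the snoRNAs were among those that fell in M. Of the 9 snoRNP genes, 4 fell and none rose in M versus control, with a class median of -0.18. The shares over all genes tested were 8.63% lower and 13.1% higher. Nop56, a core protein of the snoRNPs that guide methylation of ribosomal RNA, had 12.59 and 12.52 on the LPS+M arrays, 13.05 and 12.95 on the LPS arrays, 12.36 and 12.31 on the M arrays, and 12.77 and 12.69 on the control arrays (log2 signal). Both M arrays lay below every other array, and both LPS+M arrays lay below control. Changes are given as log2 fold changes with their SE. Nop56 fell by 0.40 ± 0.07 in M versus control (adjusted p = 0.00627) and by 0.45 ± 0.07 in LPS+M versus LPS (adjusted p = 0.00284), and rose by 0.27 ± 0.07 in LPS versus control (adjusted p = 0.0256). It was the only one of the 9 snoRNP genes called higher in LPS versus control, where all 9 log2 fold changes were positive. That share is near the 9.13% called higher over all genes tested. Dkc1, the enzyme that converts uridine to pseudouridine, had 13.54 and 13.59 in LPS+M, 13.83 and 13.75 in LPS, 13.53 and 13.58 in M, and 13.79 and 13.77 in control. The arrays with menthol were thus below those without it, while LPS and control overlapped. Dkc1 fell by 0.23 ± 0.06 in M versus control and by 0.23 ± 0.06 in LPS+M versus LPS, and had 0.01 ± 0.06 in LPS versus control.

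Nolc1, a nucleolar chaperone of snoRNPs, had 10.82 and 10.57 in LPS+M, 11.01 and 10.99 in LPS, 10.39 and 10.39 in M, and 10.81 and 10.73 in control. It fell in M versus control by 0.38 ± 0.09 and in LPS+M versus LPS by 0.30 ± 0.09. Rrp9, a protein of the U3 particle that cuts the precursor RNA, had 6.90 and 6.93 in LPS+M, 7.41 and 7.07 in LPS, 6.67 and 6.56 in M, and 6.92 and 7.09 in control. Both M arrays were the lowest, and the LPS arrays were spread widely and overlapped control. Its fall of 0.39 ± 0.12 in M versus control was just past the threshold (adjusted p = 0.0478) and was lost without any 1 of the control, M or LPS+M arrays. The remaining 5 snoRNP genes were called in none of the 3 comparisons. They are Nop58 and the methyltransferase Fbl of the methylation guides, and Gar1, Nhp2 and Nop10 of the pseudouridylation guides, and their log2 fold changes in M versus control ran from -0.18 in Nop58 to -0.01 in Nop10.

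Small subunit genes had a positive median in LPS and a negative one in M versus control. Of the 15, 6 rose and none fell in LPS versus control (median 0.22), against 9.13% called higher over all genes tested. In M versus control 2 fell and 13 were not called (median -0.14), a share near the 8.63% called lower over all genes tested. In LPS+M versus LPS 4 fell and 11 were not called (median -0.16), against 11.4% called lower over all genes tested. Tsr1, a factor of late small subunit maturation, had 11.98 and 12.10 in LPS+M, 12.41 and 12.55 in LPS, 11.63 and 11.66 in M, and 11.94 and 11.96 in control. Both LPS arrays were above, and both M arrays below, all the others. Tsr1 rose by 0.53 ± 0.07 in LPS versus control (adjusted p = 0.00205), and fell by 0.30 ± 0.07 in M versus control (adjusted p = 0.0235) and by 0.44 ± 0.07 in LPS+M versus LPS (adjusted p = 0.00429). Bysl, a factor of small subunit maturation, had 10.22 and 10.13 in LPS+M, 10.67 and 10.64 in LPS, 9.95 and 10.01 in M, and 10.29 and 10.27 in control. It fell in both menthol comparisons, by 0.30 ± 0.06 in M versus control and by 0.48 ± 0.06 in LPS+M versus LPS, and rose by 0.37 ± 0.06 with LPS. The LPS+M arrays of Bysl were below control.

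Wdr43 and Wdr75 belong with Heatr1 to a complex that couples transcription by RNA polymerase I to the first processing steps. Wdr43 had 10.57 and 10.40 in LPS+M, 10.62 and 10.53 in LPS, 10.08 and 10.06 in M, and 10.14 and 10.21 in control. The arrays with LPS were all above those without it, and LPS+M overlapped LPS. Wdr43 rose by 0.40 ± 0.08 in LPS versus control (adjusted p = 0.00832, not called without control replicate 1) and by 0.42 ± 0.08 in LPS+M versus M (adjusted p = 0.0103, not called without M replicate 1 or M replicate 2). It was not called in M versus control (-0.11 ± 0.08) or in LPS+M versus LPS (-0.09 ± 0.08). A second Wdr43 probe set gave -0.59 in M versus control and -0.75 in LPS+M versus LPS, both called when all probe sets were fitted. The 2 probe sets therefore differ on the effect of menthol, and with their mean Wdr43 was called lower in both comparisons.

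Wdr75 rose by 0.34 ± 0.06 in LPS versus control and had -0.14 ± 0.06 in M versus control. Nob1, the nuclease that makes the final cut of the small subunit RNA, had 10.17 and 10.09 in LPS+M, 10.15 and 10.16 in LPS, 9.77 and 9.72 in M, and 9.84 and 9.87 in control. It rose by 0.31 ± 0.06 in LPS versus control and by 0.39 ± 0.06 in LPS+M versus M, and LPS+M overlapped LPS. Rrp12, a factor of subunit export known from yeast, rose by 0.43 ± 0.09 in LPS versus control and fell by 0.37 ± 0.09 in LPS+M versus LPS. Utp20, a component of the small subunit processome, fell by 0.37 ± 0.07 in LPS+M versus LPS and had -0.14 ± 0.07 in M versus control. Of the other small subunit genes, Utp18, Wdr3, Wdr36, Heatr1, Nop14, Noc4l, Ltv1 and the methyltransferase Emg1 were called in none of these 3 comparisons, and their log2 fold changes in LPS versus control were all positive, between 0.07 in Noc4l and 0.23 in Wdr3.

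**Figure D3:**
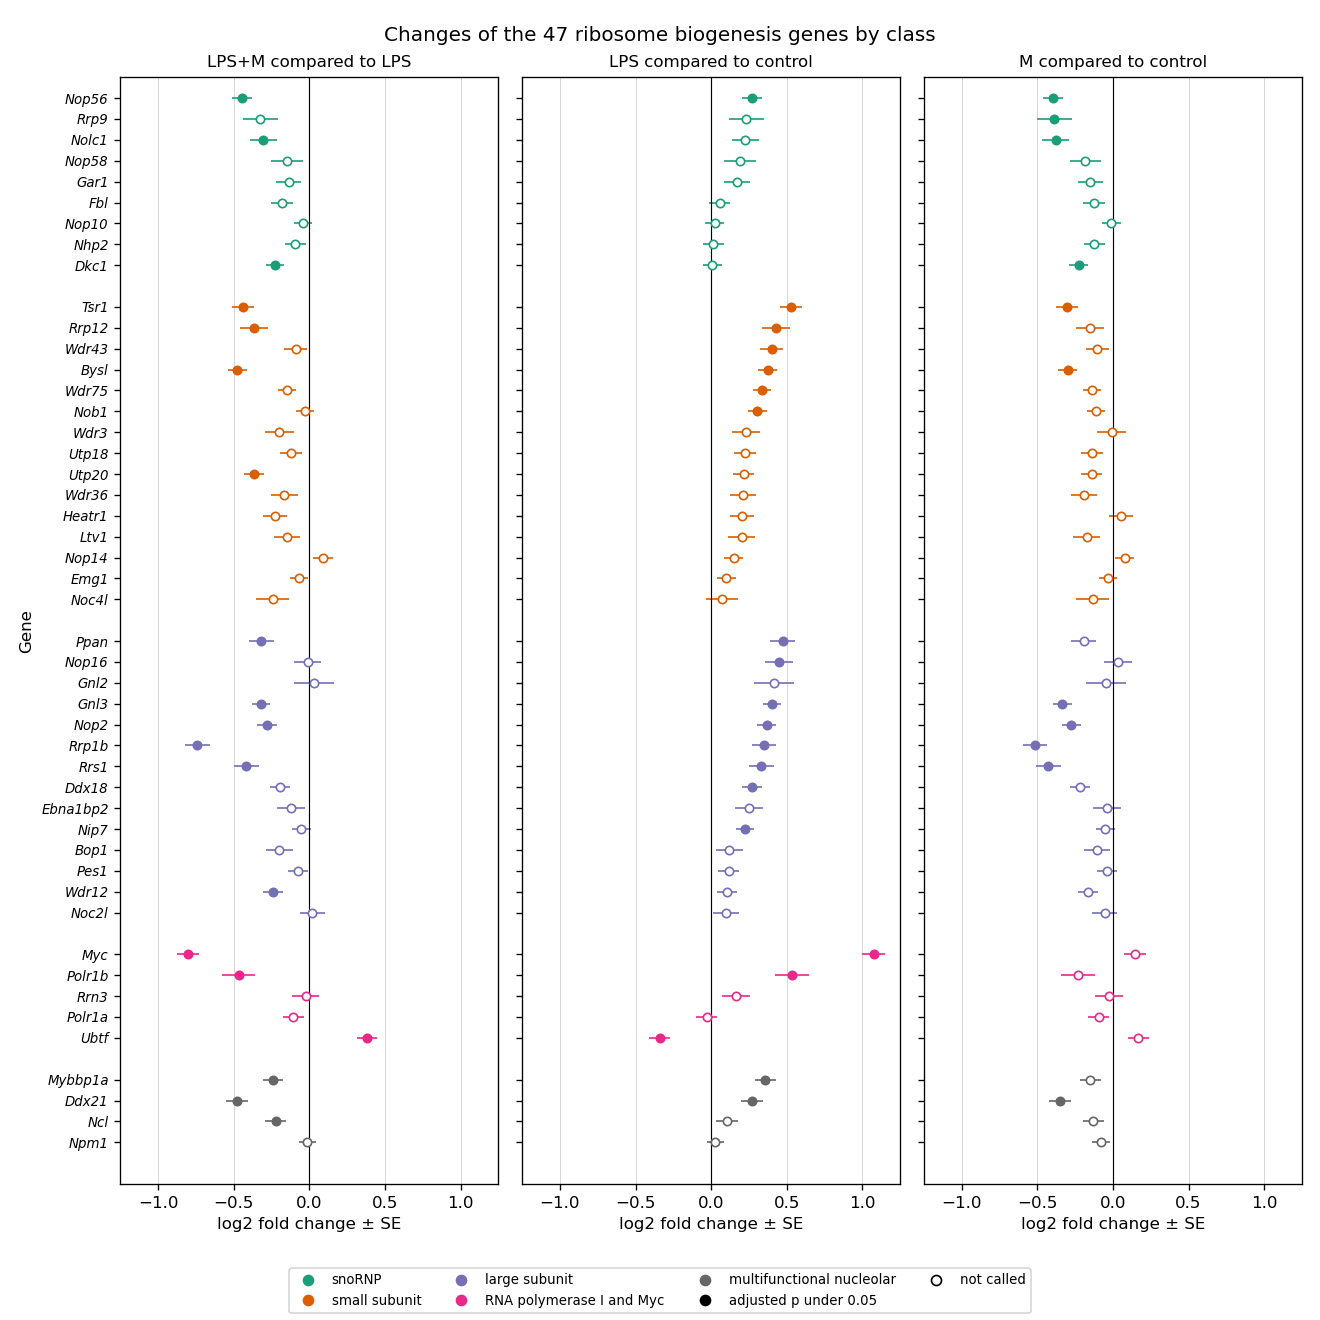
Log2 fold change with its standard error (x axis) of each member (y axis) in LPS+M versus LPS, LPS versus control and M versus control, colored by class. Filled points passed an adjusted p under 0.05, and Myc at 1.07 in LPS versus control and -0.80 in LPS+M versus LPS lies farthest from 0.

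Large subunit genes had medians in the same directions. Of the 14, 8 rose in LPS versus control (median 0.30), 4 fell in M versus control (median -0.13) and 6 fell in LPS+M versus LPS (median -0.20). Of all genes tested, 9.13% were called higher in LPS versus control, 8.63% lower in M versus control and 11.4% lower in LPS+M versus LPS. Rrp1b, a nucleolar protein of large subunit processing, had 8.65 and 8.86 in LPS+M, 9.51 and 9.49 in LPS, 8.64 and 8.63 in M, and 9.19 and 9.11 in control. All 4 arrays with menthol were below all 4 without it. Rrp1b fell by 0.52 ± 0.08 in M versus control (adjusted p = 0.00436) and by 0.74 ± 0.08 in LPS+M versus LPS (adjusted p = 0.000669), and rose by 0.35 ± 0.08 in LPS versus control (adjusted p = 0.0184). Its other probe sets had the same sign and smaller values, with -0.19 and -0.16 in M versus control and -0.08 and -0.09 in LPS+M versus LPS, and none of these was called. The size of the fall of Rrp1b is thus that of 1 of 3 probe sets.

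Rrs1, a factor of large subunit assembly, had 12.72 and 12.91 in LPS+M, 13.16 and 13.30 in LPS, 12.43 and 12.51 in M, and 12.90 and 12.89 in control. LPS was highest and M lowest on both arrays, and LPS+M overlapped control. Its fall of 0.43 ± 0.08 in M versus control (adjusted p = 0.00999) was not called without either control array or without M replicate 1. Gnl3, the GTPase nucleostemin, had 11.59 and 11.57 in LPS+M, 11.86 and 11.93 in LPS, 11.16 and 11.16 in M, and 11.52 and 11.47 in control, so that the arrays fell into separate levels for LPS, for M and, closer together, for LPS+M and control. Gnl3 fell in M versus control by 0.33 ± 0.06 and in LPS+M versus LPS by 0.32 ± 0.06, and rose by 0.40 ± 0.06 in LPS versus control and by 0.42 ± 0.06 in LPS+M versus M. Nop2, a methyltransferase of the large subunit RNA, had 10.27 and 10.33 in LPS+M, 10.63 and 10.52 in LPS, 9.93 and 9.94 in M, and 10.22 and 10.20 in control. The pattern was that of Gnl3, with a fall of 0.28 ± 0.06 in M versus control and 0.28 ± 0.06 in LPS+M versus LPS, and a rise of 0.37 ± 0.06 in LPS versus control.

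A further set of large subunit genes rose in comparisons with LPS and was not called in M versus control. Nop16, a conserved nucleolar factor, had 10.79 and 10.66 in LPS+M, 10.71 and 10.76 in LPS, 10.24 and 10.40 in M, and 10.19 and 10.39 in control. Both groups with LPS were above both without it, and within each of these pairs the groups overlapped. Nop16 rose by 0.45 ± 0.09 in LPS versus control, by 0.40 ± 0.09 in LPS+M versus M and by 0.44 ± 0.09 in LPS+M versus control. The rise over M was lost without either M array or without LPS+M replicate 1, and that of LPS+M over control without control replicate 1. Ppan rose by 0.47 ± 0.08 in LPS versus control (adjusted p = 0.00617, not called without control replicate 1) and fell by 0.32 ± 0.08 in LPS+M versus LPS. The helicase Ddx18 and Nip7 rose with LPS, by 0.27 ± 0.07 and by 0.22 ± 0.06. Gnl2, a GTPase of large subunit maturation, had 11.36 and 10.92 in LPS+M, 11.03 and 11.18 in LPS, 10.71 and 10.58 in M, and 10.70 and 10.68 in control. Gnl2 had 0.41 ± 0.13 in LPS versus control, which was not called. Its LPS+M arrays were far apart, and its rise of 0.50 ± 0.13 in LPS+M versus M (adjusted p = 0.0448) was lost without any 1 array other than LPS+M replicate 2.

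Pes1, Bop1 and Wdr12 form a complex that processes the large subunit RNA. Wdr12 fell by 0.24 ± 0.06 in LPS+M versus LPS, whereas Pes1 had -0.08 ± 0.07 and Bop1 had -0.20 ± 0.09, neither called. In LPS versus control all 3 were close together, between 0.11 and 0.12, and none was called. Ebna1bp2 and Noc2l were called in none of the 3 comparisons either.

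The class of RNA polymerase I genes and Myc moved in both directions. Of the 5, none was called in M versus control (median -0.03). In LPS versus control 2 rose, Polr1b and Myc, and 1 fell, Ubtf. In LPS+M versus LPS Polr1b and Myc fell and Ubtf rose. Among all genes tested, 9.13% were called higher and 12.6% lower in LPS versus control, and 17.3% and 11.4% in LPS+M versus LPS. Polr1a, the largest subunit of the enzyme, and Rrn3, which brings the enzyme to the ribosomal gene, were called in none of the 7 comparisons. Polr1a had 9.73 and 9.85 in LPS+M, 9.87 and 9.92 in LPS, 9.86 and 9.79 in M, and 9.95 and 9.90 in control, with LPS and control overlapping. Polr1b, the enzyme's other large catalytic subunit, had 6.52 and 6.54 in LPS+M, 6.90 and 7.11 in LPS, 6.09 and 6.39 in M, and 6.52 and 6.42 in control. LPS was above all other arrays, and both M arrays, which were far apart, were below control. Polr1b rose by 0.53 ± 0.11 in LPS versus control (adjusted p = 0.0123) and fell by 0.47 ± 0.11 in LPS+M versus LPS (adjusted p = 0.0175). The rise was not called without control replicate 2 or LPS replicate 2, and the fall was not called without LPS replicate 2 or either LPS+M array.

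Ubtf, the factor that coats active ribosomal genes, ran against the other members. It had 8.75 and 8.64 in LPS+M, 8.36 and 8.27 in LPS, 8.79 and 8.86 in M, and 8.64 and 8.67 in control. The LPS arrays were below all others, and M was above control. Ubtf fell by 0.34 ± 0.07 in LPS versus control (adjusted p = 0.0111, not called without either control array or LPS replicate 2) and rose by 0.38 ± 0.07 in LPS+M versus LPS (adjusted p = 0.00599). In M versus control it had 0.17 ± 0.07 and was not called. A dimmer Ubtf probe set gave -1.48 and 0.88 in LPS versus control and in LPS+M versus LPS, without a call, and the rise in LPS+M versus LPS was not called with the mean of both.

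Of the members, Myc had the largest change in LPS versus control. It had 7.09 and 7.21 in LPS+M, 7.96 and 7.94 in LPS, 7.02 and 7.02 in M, and 6.96 and 6.80 in control. The LPS arrays stood apart from all others, LPS+M lay just above M, and M just above control. Myc rose by 1.07 ± 0.07 in LPS versus control (adjusted p = 6.2e-05) and fell by 0.80 ± 0.07 in LPS+M versus LPS (adjusted p = 0.000374). In M versus control its log2 fold change was 0.15 ± 0.07, which did not pass the test (adjusted p = 0.21), and in LPS+M versus M it was 0.13 ± 0.07 (adjusted p = 0.316).

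**Figure D4:**
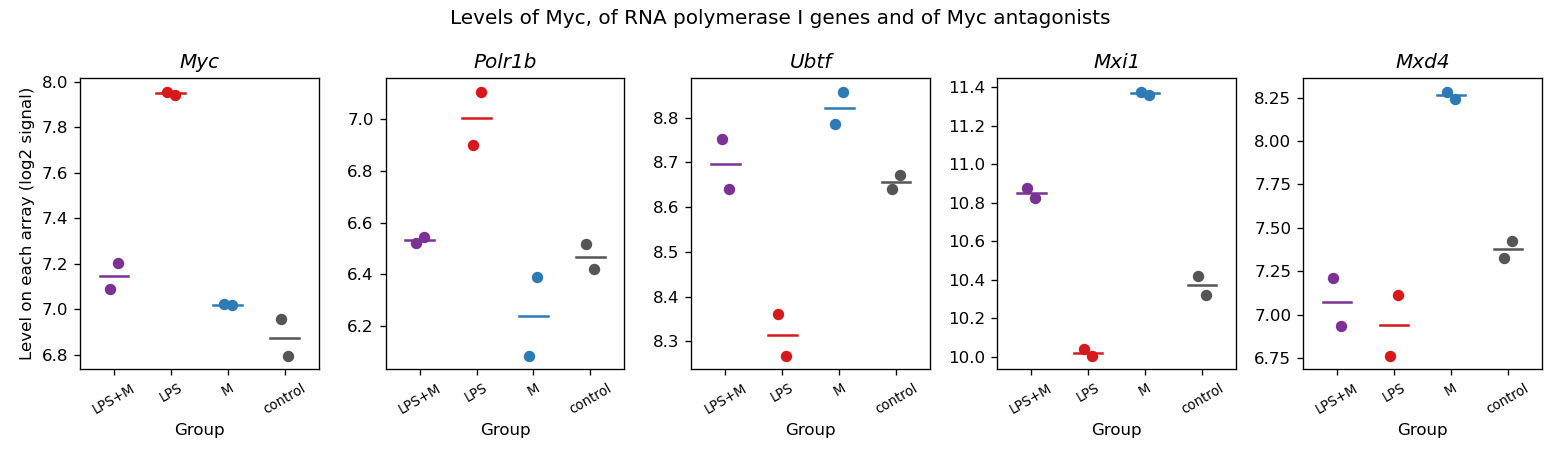
Level on each array (y axis, log2 signal) of Myc, of the RNA polymerase I genes Polr1b and Ubtf and of the Myc antagonists Mxi1 and Mxd4, by group (x axis). Points are arrays and bars the mean of 2, each panel has its own scale, and Myc sits at 7.96 and 7.94 in LPS against 6.80 to 7.21 elsewhere.

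Among the multifunctional nucleolar genes, Ddx21 and Mybbp1a changed and Npm1 did not pass the test anywhere in these comparisons. Ddx21, an RNA helicase of the nucleolus, had 11.10 and 11.16 in LPS+M, 11.61 and 11.61 in LPS, 11.07 and 10.90 in M, and 11.36 and 11.32 in control. All arrays with menthol were below all without it. Ddx21 fell by 0.35 ± 0.07 in M versus control and by 0.48 ± 0.07 in LPS+M versus LPS, and rose by 0.27 ± 0.07 in LPS versus control. Its other probe set gave 0.25 and 0.19 in the menthol comparisons, of opposite sign and not called, and the fall in LPS+M versus LPS was not called with the mean of both. Mybbp1a, a nucleolar regulator of transcription, rose by 0.36 ± 0.07 in LPS versus control and fell by 0.24 ± 0.07 in LPS+M versus LPS. Ncl, the major nucleolar RNA-binding protein, fell by 0.22 ± 0.07 in LPS+M versus LPS (adjusted p = 0.0498). Npm1, a histone and ribosome chaperone, had 14.84 and 14.83 in LPS+M, 14.88 and 14.82 in LPS, 14.73 and 14.75 in M, and 14.81 and 14.83 in control.

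The effect of menthol was then set side by side without and with LPS, in comparisons that share no arrays. Each comparison uses the same estimate of a gene's spread, so calls for a gene are not independent between comparisons. Of the 11 members that fell in M versus control, 10 also fell in LPS+M versus LPS, which is 90.9% of the 11 and 55.6% of the 18. They were Nop56, Dkc1, Nolc1, Bysl, Tsr1, Nop2, Rrp1b, Rrs1, Gnl3 and Ddx21, and the exception was Rrp9, with -0.32 ± 0.12. Over all genes tested, 519 fell in both, 67.5% of the 769 and 51% of the 1018. Across the 47 members, which are not independent replicates, the log2 fold changes of the 2 comparisons had a Pearson r of 0.6 and a Spearman rho of 0.709, with the same sign in 42. Myc lay farthest from the others, and without it r was 0.844, while r over all genes tested was 0.784.

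Fewer members passed the test for LPS after menthol, which is a difference in counts and not a test of a weaker effect. In LPS+M versus M, 12 members rose and none fell, with a median of 0.18, against 6.54% called higher and 7.69% called lower over all genes tested and a median of -0.03. The count of 12 was 2 without M replicate 1, 3 without M replicate 2 and 7 without LPS+M replicate 1, and only Nob1 and Gnl3 were called in all of these fits. Of the 19 members that rose in LPS versus control, 11 also rose in LPS+M versus M, which is 57.9% of the 19 and 91.7% of the 12. These were Wdr43, Wdr75, Nob1, Tsr1, Nop2, Nop16, Rrs1, Gnl3, Ppan, Ddx18 and Mybbp1a. Called in LPS versus control alone were Nop56, Rrp12, Bysl, Rrp1b, Nip7, Polr1b, Myc and Ddx21. Over all genes tested 438 rose in both, 53.9% of 813 and 75.1% of 583. By class, 7 of 14 large subunit genes, 4 of 15 small subunit genes, 1 of 4 multifunctional genes and none of the snoRNP or RNA polymerase I genes rose in LPS+M versus M.

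**Figure D5:**
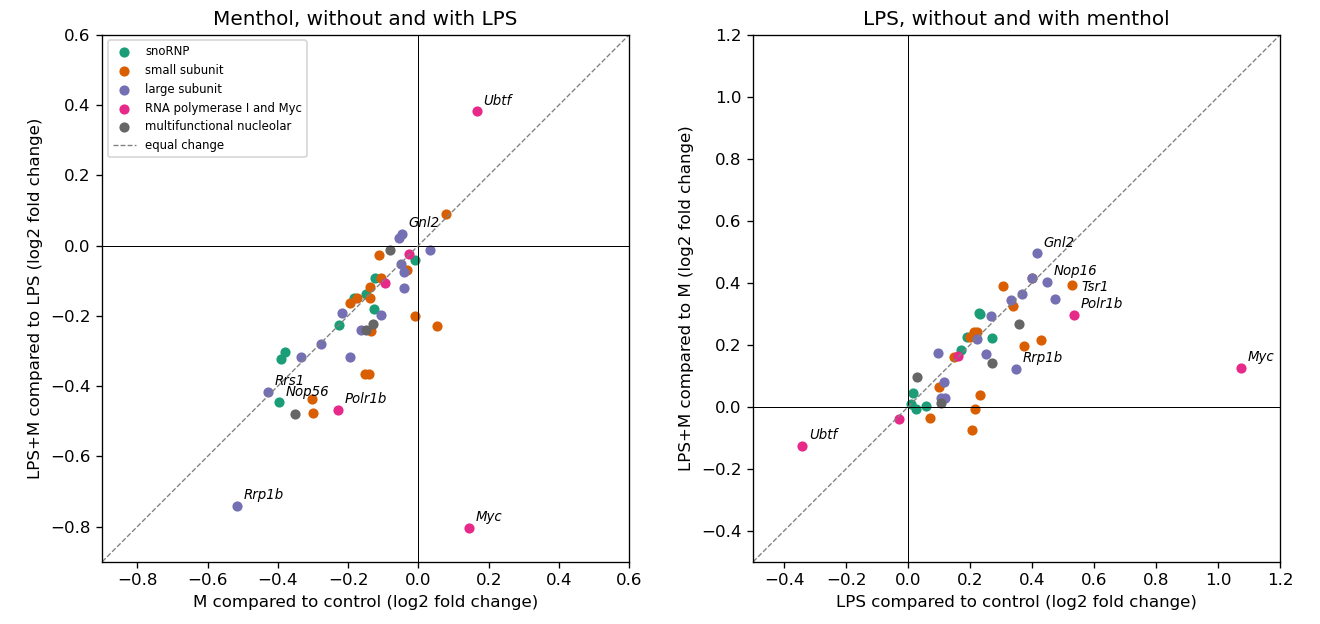
Log2 fold change of each member under menthol with LPS (y axis) against menthol without LPS (x axis) on the left, and under LPS with menthol (y axis) against LPS without menthol (x axis) on the right, colored by class. The dashed line marks equal change, and Myc lies far from it in both panels (-0.80 against 0.15, and 0.13 against 1.07).

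Whether menthol acted differently with LPS was tested with the interaction term. Myc was the only member called, with -0.95 ± 0.11 (adjusted p = 0.0182), against 0.202% called lower and 0.0449% called higher over all genes tested. Leaving out 1 array gave adjusted p-values of 0.0305 to 0.149, and the only one under the threshold was that without LPS+M replicate 2. The other 46 members lay between -0.28 in Heatr1 and 0.22 in Ubtf, and the median was -0.01. At an unadjusted p under 0.05 there were 2 members, Heatr1 and Myc, and 892 genes (10%) over all tested. A difference between 2 groups had a median SE of 0.08 in this fit. The interaction term has a larger SE, with 0.10 against 0.07 in Nop56 and 0.15 against 0.10 in Nop58. A missed threshold does not show that menthol acted equally with and without LPS.

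In LPS+M versus control few members were called lower, while the share called higher was not far from that of all genes tested. Here 7 rose and 2 fell, against 17.9% called higher and 16.7% called lower over all genes tested, with a median of 0.04 against 0.00 over all genes tested. This median was 0.009478 without LPS+M replicate 1, 0.02437 without control replicate 1, and 0.0154 with all arrays shifted to 1 median. Those that rose were Gnl2 (0.45 ± 0.13), Nop16 (0.44 ± 0.09), Wdr43 (0.31 ± 0.08), Nob1 (0.28 ± 0.06), Myc (0.27 ± 0.07), Nop14 (0.24 ± 0.06) and Wdr75 (0.19 ± 0.06). Rrp1b fell by 0.39 ± 0.08 and Dkc1 by 0.22 ± 0.06. Without control replicate 1 the counts were 1 and 0, without control replicate 2 they were 2 and 1, and without LPS+M replicate 1 they were 3 and 1, and no member was called in all 8 fits. The rise of Myc was not called without control replicate 2 or LPS+M replicate 2. For Wdr43, the other probe set gave -0.30 and was called lower, so its direction in this comparison depends on the probe set.

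By the median of the members, the groups farthest apart were LPS and M. In LPS versus M, 32 members were called higher and 1, Ubtf, lower, against 14.4% and 24.3% over all genes tested, with a median of 0.37 against -0.06. Of the 32, 13 were higher by 1.5-fold or more, against 4.59% over all genes tested. The largest differences were in Myc (0.93 ± 0.07), Rrp1b (0.86 ± 0.08), Tsr1 (0.83 ± 0.07) and Polr1b (0.76 ± 0.11), and Ubtf had -0.51 ± 0.07. Of the 32 calls, 21 held whichever array was left out, as did that of Ubtf. The share of members called was 6 of 9 snoRNP genes, 10 of 15 small subunit genes, 11 of 14 large subunit genes, 3 of 4 multifunctional genes, and 2 of 5 genes of RNA polymerase I and Myc, the class that also holds Ubtf.

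Other genes of the pathway outside the 47 had pooled medians of the same sign and smaller size, which came mainly from the subunit lists. They too were listed by function with earlier results known. Of 107 such genes tested (of 115 listed and 108 on the array), 16 fell and 2 rose in M versus control (median -0.09), 30 rose and none fell in LPS versus control (median 0.16), and 20 fell and 3 rose in LPS+M versus LPS (median -0.10). Of these, 7 of 41 other small subunit genes and 7 of 43 other large subunit genes fell in M versus control, and 14 of each rose in LPS versus control. The shares of all genes tested were 8.63% lower in M versus control, 9.13% higher in LPS versus control and 11.4% lower in LPS+M versus LPS. The other RNA polymerase I genes had medians near 0, with -0.004038 in M versus control and none of 12 called in LPS versus control, and the other snoRNP genes had -0.01276 in LPS versus control, with 2 of 11 called higher. Ccdc86, a nucleolar large subunit factor, had 10.13 and 9.89 in LPS+M, 10.73 and 10.66 in LPS, 9.65 and 9.67 in M, and 10.46 and 10.25 in control, and fell by 0.69 ± 0.10 in M versus control and by 0.69 ± 0.10 in LPS+M versus LPS. Nat10, which acetylates the small subunit RNA, fell by 0.35 ± 0.07 and by 0.37 ± 0.07 in these comparisons and rose by 0.44 ± 0.07 in LPS versus control. The helicase Ddx56 fell by 0.45 ± 0.08 and by 0.60 ± 0.08. Against this direction, Polr1c, a subunit that RNA polymerases I and III share, rose by 0.40 ± 0.07 in M versus control and by 0.43 ± 0.07 in LPS+M versus LPS.

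Ribosomal protein genes, the structural products that these factors assemble, stayed near 0. Of 58 listed, 38 were on the array and 37 were tested. Of the 37, none was called in M versus control (median 0.04) and 1 rose in LPS versus control (median 0.01). In LPS+M versus LPS 3 fell (median 0.02). The one that rose was Rpl12, with 7.59 and 8.23 in LPS+M, 8.33 and 8.42 in LPS, 6.92 and 7.21 in M, and 7.27 and 7.62 in control. Those that fell were Rps6 (-0.40 ± 0.08), Rpl14 (-0.32 ± 0.06) and Rps25 (-0.23 ± 0.06). Over all genes tested, 8.63% were called lower and 13.1% higher in M versus control. The shares were 9.13% higher in LPS versus control and 11.4% lower in LPS+M versus LPS. Of 14 subunits of the exosome, the nuclease that trims precursor RNA, Exosc10 fell in M versus control by 0.23 ± 0.07 and in LPS+M versus LPS by 0.33 ± 0.07. No other subunit was called in these comparisons or in LPS versus control. This single call in each menthol comparison does not exceed the share called lower over all genes tested.

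Mxi1 and Mxd4 encode repressors that compete with Myc for its partner Max. Mxi1 had 10.88 and 10.83 in LPS+M, 10.04 and 10.01 in LPS, 11.38 and 11.36 in M, and 10.42 and 10.32 in control, so that each group stood apart and the order was M, LPS+M, control, LPS. It rose by 1.00 ± 0.06 in M versus control (adjusted p = 0.000132) and by 0.83 ± 0.06 in LPS+M versus LPS (adjusted p = 0.000148), and fell by 0.35 ± 0.06 in LPS versus control (adjusted p = 0.00629). Mxd4 had 7.21 and 6.93 in LPS+M, 6.76 and 7.11 in LPS, 8.28 and 8.24 in M, and 7.33 and 7.42 in control. The M arrays were highest, and LPS+M and LPS overlapped. Mxd4 rose by 0.89 ± 0.13 in M versus control, fell by 0.44 ± 0.13 in LPS versus control and had 0.13 ± 0.13 in LPS+M versus LPS. Of the 8 tested genes of Myc partners and antagonists, no other was called in the menthol comparisons, and Mlx rose by 0.26 ± 0.07 in LPS versus control.

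Other genes known as Myc targets outside the nucleolus were mostly not called. Of 23 tested, 2 rose and none fell in LPS versus control (median 0.03), 5 fell and 2 rose in M versus control (median -0.09), and 4 fell and 3 rose in LPS+M versus LPS (median -0.12). The share that rose with LPS was near the 9.13% called higher over all genes tested. In M versus control 8.63% of all genes tested were called lower, and in LPS+M versus LPS 11.4%. Odc1, the first enzyme of polyamine synthesis, rose by 1.07 ± 0.07 in M versus control, by 0.86 ± 0.07 in LPS versus control and by 0.72 ± 0.07 in LPS+M versus LPS. Ppat, the first enzyme of purine synthesis, fell by 0.58 ± 0.08 in M versus control and by 0.74 ± 0.08 in LPS+M versus LPS.

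Across the series, the arrays of a group were closely alike, and genes listed as checks of the treatments changed. Acod1, which macrophages induce on LPS, rose by 6.64 ± 0.12 in LPS versus control. Slc7a11 and Ddit4, genes of stress responses, rose by 2.99 ± 0.12 and 2.42 ± 0.09 in M versus control. These check genes were chosen with earlier results known. Slc7a11 also rose by 2.21 in LPS versus control, so it does not mark menthol alone. All 10 macrophage markers passed the filter on low signal, with a mean over markers of 12 to 12.1 on every array, and none of the 6 lymphocyte or 7 epithelial and fibroblast markers did, with means of 1.69 to 3.83. The 47 members all passed this filter, with mean signals of 6.56 to 14.8 against a minimum of 4.84. The arrays were scaled to 1 common distribution, so a change in total RNA per cell would not be seen, and fewer cells expressing a gene and less RNA per cell cannot be told apart. Of the members, 31 have several probe sets, and of 32 further probe sets of 24 members that passed the filter, 28 had the sign of the probe set used in each of M versus control, LPS versus control and LPS+M versus LPS, and 31 in LPS versus M. The count was 22 in LPS+M versus M, 23 in LPS+M versus control, where 1, that of Wdr43, was called in the opposite direction, and 16 in the interaction. The probe sets used for 7 members, namely Nop56, Fbl, Gar1, Nhp2, Tsr1, Noc4l and Rrs1, and the second one of Wdr43, are of a type that may read more than 1 transcript.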

How the data were processed

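The authors deposited log2 signals of 45101 probe sets for 8 Affymetrix arrays of RAW 264.7 cells, made per the labels with the Bioconductor method GC-RMA (GCRMA version 2.10.0, run under R version 2.6.1). This method corrects background by the GC content of probes, gives all arrays 1 distribution and summarises each probe set. No further scaling was applied. Groups came from the sample labels.

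Of the probe sets, the 34945 with 1 gene symbol were kept. For a gene with several, the one with the highest mean signal stood for it. Genes were tested where this mean exceeded 4.84, the average over the whole array, which 8908 of 18193 genes did. Symbols were updated through RefSeq. All arrays were fitted together in limma 3.58.1 (R 4.3.3; lmFit and eBayes, 1 coefficient per group, 4 residual and 3.778 prior degrees of freedom). Genes with an adjusted p under 0.05 (Benjamini-Hochberg within each comparison) were called at any fold, and those past the study's minimum of 1.5-fold were counted beside them. There were 7 comparisons, namely all 6 pairs of groups and the interaction. With 2 arrays a group, the smallest two-sided p of an exact permutation test is 0.333, so none was run. Precision is limited by the number of arrays. The script was tested on simulated data.

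The members, their classes and the other lists were chosen with earlier results of these data known, so no set was tested. Named genes were up to 4 called members with the largest change in a comparison, Myc, the RNA polymerase I genes and Wdr43, and up to 3 called genes of every other list, and further members were named to account for every class after their values were seen. The alternatives were a fold minimum, no filter, the mean of all probe sets, quantile normalization, a shift of each array to 1 median, trended and robust eBayes, the replicate number as a block, the methods' t-test, a fit of only the compared groups, and leaving out each array.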

Additional observations from a re-analysis of the deposited data

Results flagged for a closer look

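Myc stood out because the interaction term called its response to menthol different without and with LPS. The log2 fold change of Myc was -0.80 in LPS+M versus LPS and 0.15 in M versus control, and their difference, the interaction term, was -0.95 ± 0.11 (SE, limma, adjusted p = 0.0182, 2 arrays per group). Both LPS+M arrays were lower than both LPS arrays, and both M arrays were higher than both control arrays. The difference of M from control was not itself called (limma, adjusted p = 0.21). Leaving out 1 array gave interaction values of -1.028 to -0.8678, and the call was lost in most of these fits. With no filter on low values the adjusted p was 0.0774. The cause was not tested.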

How the results depend on the processing

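No named member changed sign under the alternatives run where it was called in the main fit or in the alternative. Sign changes of uncalled members, such as Rrn3 in M versus control without M replicate 1, were not counted as reversals. The alternatives took the mean of all probe sets but no other single one. Read through its second probe set, Wdr43 in LPS+M versus control and Ddx21 in both menthol comparisons had the opposite sign. The medians over the members kept their sign, except in the interaction. Shifting the arrays to 1 median, by at most 0.0411, gave medians of -0.19 in M versus control, -0.22 in LPS+M versus LPS, 0.21 in LPS+M versus M, 0.0154 in LPS+M versus control, 0.42 in LPS versus M and 0.00943 in the interaction. Counts depended on the rule. With a fold of at least 1.5, 0 members fell in M versus control, 1 rose and 0 fell in LPS versus control, 0 rose and 2 fell in LPS+M versus LPS, 0 rose in LPS+M versus M, 0 rose and 0 fell in LPS+M versus control, and 13 were higher and 0 lower in LPS versus M. The methods' t-test with the same fold gave 0, 1 and 0, 0 and 1, 0, 0 and 0, and 9 and 0 in the same order, and after Benjamini-Hochberg adjustment it called 0 members in these 6 comparisons, where its unadjusted p was under 0.05 for 9, 10, 10, 7, 5 and 22 members. With the mean of all probe sets, 0 members rose in LPS+M versus LPS, 4 fell in LPS+M versus control, and the medians were 0.20 in LPS versus control and 0.34 in LPS versus M. With trended and robust eBayes, 4 fell in LPS+M versus control. Fitting only the groups compared left 11 that fell in LPS+M versus LPS, 6 that rose in LPS+M versus M, and 3 and 1 in LPS+M versus control. With no filter, 0 members were called in the interaction.

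Leaving out 1 array gave 2 to 11 members lower in M versus control (median -0.15 to -0.11), 7 to 23 higher and 0 to 1 lower in LPS versus control (0.22 to 0.26), 11 to 14 lower in LPS+M versus LPS (-0.21 to -0.16), 2 to 12 higher in LPS+M versus M (0.15 to 0.22), 1 to 6 higher and 0 to 3 lower in LPS+M versus control (0.009478 to 0.05534), 23 to 33 higher in LPS versus M (0.33 to 0.40), and 0 to 1 lower in the interaction (-0.06745 to -0.001623). Where this left 1 array in a group, that array was assumed to vary like the others. Deviations of same-numbered arrays had correlations of -0.121 to 0.186 between groups. The labels do not say what the numbers stand for, and these correlations cannot exclude a shared batch. With the replicate number as a block, 9 members fell in M versus control, 18 rose in LPS versus control, 17 fell in LPS+M versus LPS, and the fall of Rrp9 was not called.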

Other observations

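Other genes of ribosome assembly outside the 47 were called in the remaining comparisons too. In LPS+M versus M, Dimt1, a methyltransferase of the small subunit RNA, rose by 0.52 ± 0.08 and Pwp2, a small subunit processome protein, by 0.49 ± 0.06 on the log2 scale. In LPS+M versus LPS, Dhx37, a helicase of small subunit assembly, fell by 0.58 ± 0.12, Shq1, an assembly factor of pseudouridylation snoRNPs, by 0.46 ± 0.11, and Gnl3l by 0.50 ± 0.07. Naf1, another assembly factor of these particles, rose by 0.47 ± 0.06 in LPS versus control and by 0.35 ± 0.06 in LPS+M versus M. Of 107 such genes tested, 51 were higher and 3 lower in LPS versus M, with a median of 0.23. The shares over all genes tested were 14.4% higher and 24.3% lower.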
